A study of Mus musculus with 12 samples.

Results

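Expression of 10 genes of the NRF2 antioxidant response was examined in murine acute myeloid leukemia (AML) cells exposed to the p300/CBP bromodomain inhibitor CCS1477. The 10 genes were chosen by name (*Nfe2l2*, *Keap1*, *Gclc*, *Gclm*, *Txn1*, *Txnrd1*, *Srxn1*, *Prdx1*, *Hmox1* and *Nqo1*), and all 10 were found among the 15651 genes of the expression table. Splenocytes of moribund mice carrying *Dnmt3a* fl/fl, *Flt3* ITD/ITD and Mx1Cre (*D/F* AML) or *Tet2* fl/fl, *Flt3* ITD/ITD and Mx1Cre (*T/F* AML) were enriched for c-Kit, and the cells of each mouse were divided between CCS1477 and its vehicle DMSO. There were 3 mice per genotype and 12 libraries in 4 groups of 3. The *D/F* cells received 4 µM and the *T/F* cells 2 µM CCS1477 for 6 hours in medium with SCF, IL6 and IL3, so genotype and dose cannot be told apart. Both *Flt3* ITD alleles and Mx1Cre were shared by every group. Per the study's methods the Mx1 promoter, which drives Cre in hematopoietic and other interferon-responsive cells, was not induced, and deletion of the floxed gene relied on its leakiness and could involve 1 or both alleles.

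NRF2, encoded by *Nfe2l2*, is a transcription factor that pairs with small MAF proteins on antioxidant response elements in the promoters and enhancers of its target genes. In unstressed cells KEAP1 holds NRF2 in the cytoplasm and presents it for ubiquitination and degradation, and oxidants or electrophiles that modify KEAP1 cysteines allow NRF2 to accumulate. NRF2 is therefore controlled largely at the protein level, which was not measured here, and it recruits the acetyltransferases p300 and CBP to its targets. In myeloid leukemia its targets are known for supplying glutathione and thioredoxin and for tolerance to oxidative and chemical stress.

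Values are in TPM, a measure of transcript abundance that is scaled to gene length and to the sum of each library, so a change is relative to all other transcripts in the library. No read numbers are kept in TPM, and the depth behind each value is unknown beyond what the study states of its sequencing. All 8 markers of leukemic progenitors (*Kit*, *Flt3*, *Cd34*, *Mpo*, *Prtn3*, *Elane*, *Ctsg* and *Ptprc*) were above 0 in every library, although *Ptprc*, the pan-leukocyte marker, reached only 3.11 TPM. Their summed level was 3626 to 10021 TPM in *D/F* DMSO, 803 to 4277 in *D/F* CCS1477, 4154 to 6379 in *T/F* DMSO and 1666 to 3004 in *T/F* CCS1477. All 10 neutrophil markers were in the table, with sums of 2896 to 10103, 1756 to 9840, 2584 to 7658 and 2722 to 7313 TPM in the same order. Of 13 macrophage markers 9 were present, with sums of 32.7 to 46.2, 9.16 to 16.3, 36.0 to 73.9 and 14.0 to 24.7 TPM. Of 9 erythroid markers 7 were present (12.5 to 32.1, 10.9 to 25.6, 18.9 to 28.7 and 14.8 to 24.9 TPM), of 7 T cell markers 4 (25.1 to 48.1, 17.5 to 27.8, 19.6 to 24.0 and 17.6 to 24.3 TPM), and of 6 B cell markers 3 (25.8 to 51.8, 20.9 to 49.5, 49.8 to 59.0 and 104 to 132 TPM). The higher B cell sum of treated *T/F* came from *Ighm* alone (mean 36.4 TPM with DMSO, 102 with CCS1477). *Cd79b* (16.6 and 12.2) and *Pax5* (1.62 and 0.606) were lower with CCS1477. The neutrophil sums also mixed directions. *S100a9*, *Ltf* and *Ngp* had higher means with CCS1477 in both genotypes, and the others lower means, such as *Camp* (154 and 44.8 TPM in *D/F*, 97.7 and 52.3 in *T/F*). The progenitor sums came mostly from *Mpo*, *Prtn3*, *Elane* and *Ctsg*. Of the progenitor markers, only *Ptprc* in *D/F* had a higher mean with CCS1477 (1.24 and 1.95 TPM). Of the erythroid markers, *Hba-a2* and *Hbb-bt* were at 0 in 5 and 3 of the 12 libraries. In bulk RNA, fewer cells of a type and less RNA per cell cannot be told apart. *Dnmt3a* was 29.3 to 55.7 TPM in *D/F* DMSO and 39.9 to 53.9 in *T/F* DMSO, and *Tet2* was 38.3 to 43.4 and 30.0 to 35.8 TPM. A gene-level value does not resolve the floxed exons and so does not check the deletion. Both libraries of *D/F* mouse 2 stood apart. Their log2(TPM + 1) correlated with those of the other *D/F* mice at r = 0.945 to 0.956 across genes, against 0.978 to 0.982 between mice 1 and 3, and under each treatment they had the lowest progenitor and neutrophil sums of the *D/F* libraries. Results that rest on this mouse are therefore given with and without it.

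The promoter sequences of the members were searched for the core of the antioxidant response element to show what the genes share beyond their names. RefSeq windows on GRCm38.p6, from 250 bases before to 50 bases after the transcript start, were available for 8 of the 10 genes, and those of *Hmox1* and *Gclc* were not analysed here. The core TGACNNNGC, read on both strands, occurred in 5 of the 8 genes and in 12.4% of all 32851 windows of the same length. A gene was counted if any of its windows held the core, so the count of genes and the share of windows differ in unit. The site in *Nfe2l2* lies at chr2:75704885-75704913, 240 bases before the start. Those of *Gclm* (chr3:122245413-122245441) and *Prdx1* (chr4:116685456-116685484) lie 134 and 133 bases before their starts. For *Txnrd1*, which has 3 windows, the site is 92 bases before the start of the second (chr10:82859104-82859132), and for *Srxn1* it lies 28 bases after the start (chr2:152105542-152105570). The sites are shown 5′ to 3′ on the strand of each gene, with the 9 bases of the core in capitals. Only *Nfe2l2*, on the minus strand of the chromosome, has the core in the forward orientation relative to the gene, and the other 4 have its reverse complement.
Nfe2l2: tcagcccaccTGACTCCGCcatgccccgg
Gclm: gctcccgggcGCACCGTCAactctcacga
Txnrd1: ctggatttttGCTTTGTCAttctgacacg
Srxn1: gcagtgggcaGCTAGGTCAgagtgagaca
Prdx1: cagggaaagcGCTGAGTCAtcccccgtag
The windows of *Keap1*, *Txn1* and *Nqo1* and the other 2 windows of *Txnrd1* held no such core. The AP-1 element TGACTCA, also read on both strands, was present in 5.2% of all windows and, among the members, 2 times each in *Srxn1* and *Prdx1*. One of those in *Prdx1* lies within the core printed above. Variants of the antioxidant response element other than this core were not searched, so further elements in these windows, also in *Srxn1*, may be missed. A match of these letters is a description of the window and not evidence of binding.

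CCS1477 raised 6 of the 10 members over both genotypes and lowered 1. *Prdx1*, *Srxn1*, *Gclc*, *Txnrd1*, *Nfe2l2* and *Txn1* were higher with CCS1477 in the cells of 6 of 6 mice, by between 1.23-fold (*Txn1*) and 1.88-fold (*Srxn1*) in a limma fit with genotype as a covariate. The change of *Prdx1* had the lowest p of the members (limma, adjusted p = 3.2e-05). *Gclm* was lower in 6 of 6 mice, by 1.30-fold (limma, adjusted p = 0.0208), a call that was lost without *D/F* mouse 3 (limma, adjusted p = 0.0606) or *T/F* mouse 1 (0.0649) or 2 (0.0774). *Keap1*, *Hmox1* and *Nqo1* did not pass an adjusted p of 0.05 in that fit of all 6 mice. Without *D/F* mouse 2, *Keap1* and *Nqo1* passed in limma, which gave 8 members higher beside 32.6% of all genes tested. None of the 10 was called above 2-fold (adjusted p under 0.05) in the limma fit of all 6 mice, against 8.8% of the 15583 genes tested. None passed 2-fold at an unadjusted p under 0.05 in limma either, a threshold at which all genes were not counted. At an adjusted p under 0.05 and any fold, 25.8% of all genes tested were higher and 19.6% lower, beside 6 and 1 of the 10 members. The median change of the members was 0.43 (log2), and that of all genes tested was 0.07. The plot of TPM by library shows the 6 raised members and *Gclm* each moving one way in every mouse. The share of all genes that did so was not counted, so the pattern is not read as particular to these genes.

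**Figure D1:**
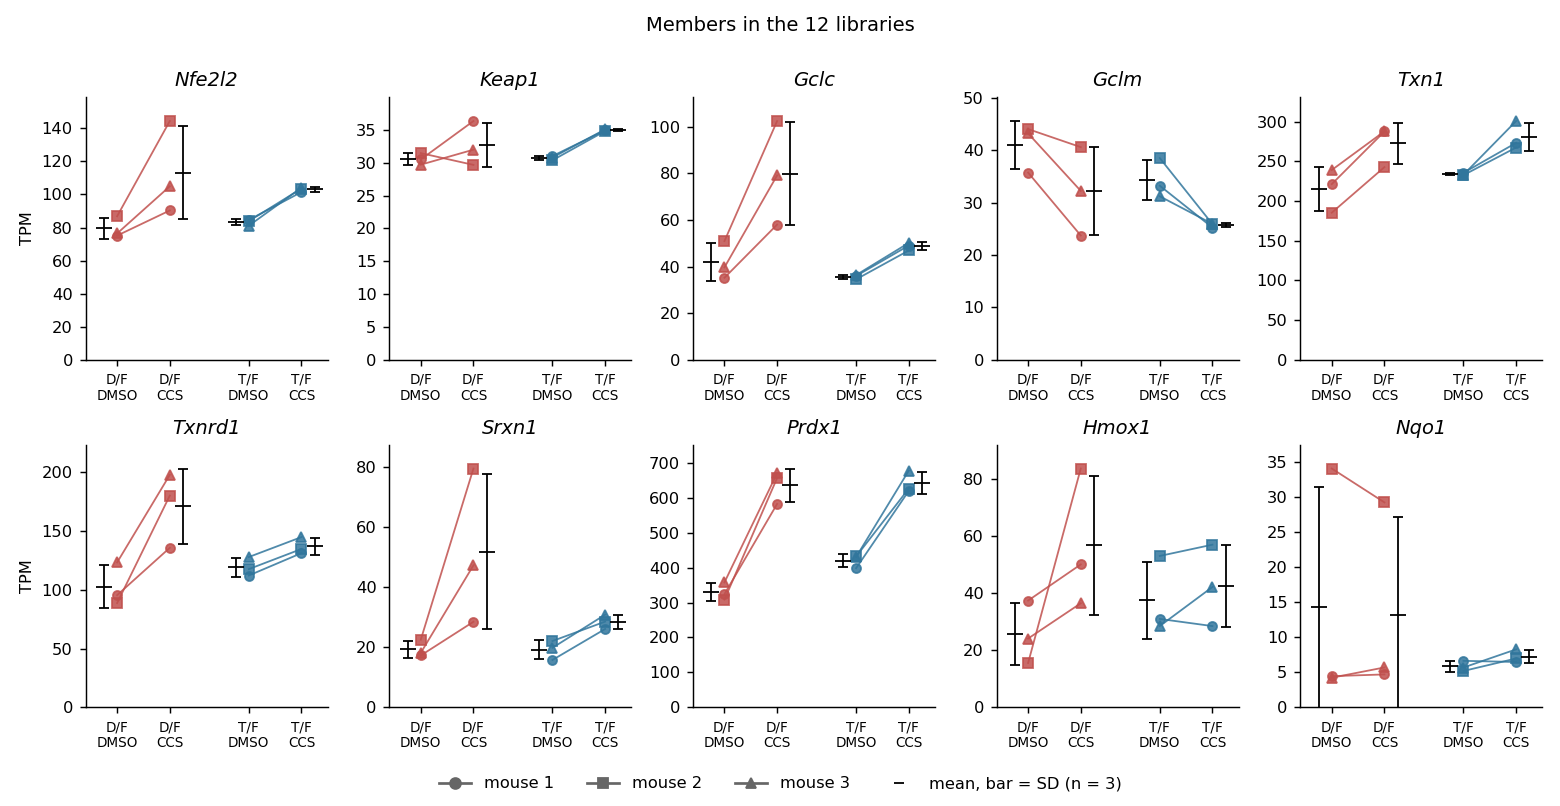
TPM of the 10 members (vertical axes, each from 0) in *D/F* (red) and *T/F* (blue) cells, with a line joining the DMSO and CCS1477 libraries of each mouse and black bars showing the mean ± SD of 3 mice (cut at 0 for *Nqo1*, whose SD exceeds its mean in *D/F*). Every line rises for *Nfe2l2*, *Gclc*, *Txn1*, *Txnrd1*, *Srxn1* and *Prdx1*, every line falls for *Gclm*, and *D/F* mouse 2 (squares) lies far above the others for *Nqo1*.

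The sensor and its transcription factor were described first. *Nfe2l2* (ENSMUSG00000015839, chr2:75675513-75704641, minus strand) was 75.1, 86.8 and 76.4 TPM in *D/F* mice 1, 2 and 3 with DMSO and 90.3, 144 and 105 TPM with CCS1477. In *T/F* cells it was 84.6, 83.9 and 81.1 TPM with DMSO and 101, 104 and 104 TPM with CCS1477. The treated and untreated libraries did not overlap in either genotype, and the treated *D/F* library of mouse 2 was the highest of all. In *T/F* the log2 fold change of 0.31 ± 0.06 (SE, n = 3 per group) passed the test (limma, Benjamini-Hochberg adjusted p = 0.00736), but not after rescaling to the median gene (limma, adjusted p = 0.0509) or without *T/F* mouse 1 (0.0672) or 2 (0.0793). In *D/F* the change of 0.48 ± 0.21 did not (limma, adjusted p = 0.180), but it passed when the mouse was entered as a block (limma, adjusted p = 0.0437), and no longer when mouse 2 was left out of that fit (limma, adjusted p = 0.0869). Over both genotypes the change was 0.39 ± 0.11 (limma, adjusted p = 0.0100).

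*Keap1* (ENSMUSG00000003308, chr9:21229730-21239361, minus strand), which encodes the adaptor that targets NRF2 for degradation, had the narrowest relative range of the members. It was 30.5, 31.4 and 29.7 TPM in *D/F* DMSO and 36.3, 29.7 and 32.0 TPM in *D/F* CCS1477. In *T/F* it was 31.0, 30.4 and 30.8 TPM with DMSO and 34.9, 34.8 and 35.1 TPM with CCS1477. The *D/F* groups overlapped, with mouse 2 lower under the drug, whereas the *T/F* groups did not overlap. The change in *T/F* was 0.18 ± 0.05 (limma, adjusted p = 0.0386), a 1.13-fold rise, and that in *D/F* was 0.09 ± 0.15 (limma, adjusted p = 0.726). The *T/F* call was lost when libraries were rescaled to their median gene (limma, adjusted p = 0.272) and without any 1 of the 3 mice. Per the GENCODE vM21 annotation, *Keap1* overlaps an antisense gene, *Gm16754*. The strand setting of the authors' counting is not given in the sources used here, so reads of the pair may not be separated.

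The subunits of glutamate-cysteine ligase, the rate-limiting enzyme of glutathione synthesis, moved in opposite directions. *Gclc* (ENSMUSG00000032350, chr9:77754535-77794485, plus strand) encodes the catalytic subunit and was 35.2, 50.9 and 39.7 TPM in *D/F* DMSO and 58.0, 102 and 79.1 TPM in *D/F* CCS1477. The *T/F* values were 36.0, 34.5 and 36.4 TPM with DMSO and 49.0, 46.9 and 50.1 TPM with CCS1477. The treated libraries were above the untreated ones in both genotypes, without overlap. The rise was 1.36-fold in *T/F* (log2 0.44 ± 0.06; limma, adjusted p = 0.00280). In *D/F* the difference was 1.86-fold (0.89 ± 0.25; limma, adjusted p = 0.0706), and it passed with the mouse as a block (limma, adjusted p = 0.00870) and without mouse 2 (limma, adjusted p = 0.0463).

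*Gclm* (ENSMUSG00000028124, chr3:122245557-122270732, plus strand) encodes the modifier subunit, which raises the activity of the catalytic subunit. It was 35.7, 44.0 and 43.2 TPM in *D/F* DMSO and 23.7, 40.6 and 32.2 TPM in *D/F* CCS1477. In *T/F* it was 33.2, 38.5 and 31.2 TPM with DMSO and 25.2, 25.9 and 25.9 TPM with CCS1477. Each mouse had less with CCS1477, and the *T/F* groups did not overlap, but in *D/F* the treated library of mouse 2 exceeded the untreated one of mouse 1. *Gclm* fell by 0.40 ± 0.09 on the log2 scale in *T/F* (limma, adjusted p = 0.0154), a call that was lost without mouse 1 (limma, adjusted p = 0.104) or mouse 2 (limma, adjusted p = 0.0791). In *D/F* the change was −0.37 ± 0.23 (limma, adjusted p = 0.327), with an adjusted p of 0.0801 when limma was fitted with the mouse as a block and of 0.0463 when mouse 2 was left out of that fit. *Gclm* overlaps *Gm17494* on the opposite strand and the pseudogene *Gm6061* on its own strand, neither of which is in the table, so its level is uncertain to that extent.

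The ratio of *Gclc* to *Gclm* TPM does not depend on the library total. For untreated *D/F* cells it was 1.02 ± 0.123 (SD, n = 3), and for untreated *T/F* cells 1.05 ± 0.137. With CCS1477 it was 2.47 ± 0.0429 for *D/F* and 1.90 ± 0.0730 for *T/F*, and all 6 treated libraries, at 1.81 to 2.52, lay above all 6 untreated ones, at 0.897 to 1.17. Within mice the ratio rose by 1.66- to 2.67-fold, in 6 of 6 mice (mean log2 change 1.07 ± 0.265, SD, exact two-sided sign-flip permutation test over mice, p = 0.03125, the smallest that 6 mice allow). Because *Gclc* rose and *Gclm* fell in each mouse, this p was fixed by those directions and adds nothing to them. The mean change ranged from 1.00 to 1.14 when each mouse was left out in turn.

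**Figure D2:**
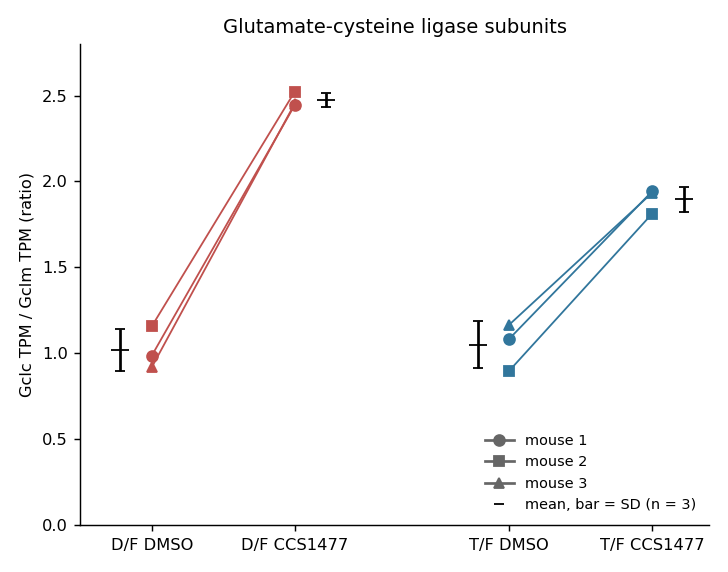
Ratio of *Gclc* to *Gclm* TPM (vertical axis, from 0) in each library of *D/F* (red) and *T/F* (blue) cells, with a line joining the libraries of each mouse and black bars for the mean ± SD of 3 mice. The untreated libraries lie between 0.897 and 1.17 and the CCS1477 libraries between 1.81 and 2.52.

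The thioredoxin and peroxiredoxin genes were the most highly expressed members. *Txn1* (ENSMUSG00000028367, chr4:57943373-57956411, minus strand), the cytosolic thioredoxin that reduces protein disulfides, was 221, 185 and 239 TPM in *D/F* DMSO and 288, 243 and 288 TPM in *D/F* CCS1477. The *T/F* values were 235, 233 and 233 TPM with DMSO and 273, 267 and 301 TPM with CCS1477. Treated and untreated libraries were separate in both genotypes, and mouse 2 was the lowest *D/F* mouse under both treatments. *Txn1* rose 1.20-fold in *T/F* (log2 0.26 ± 0.07; limma, adjusted p = 0.0259), a call that was lost without any 1 of the 3 mice and after rescaling to the median gene (limma, adjusted p = 0.0786). In *D/F* the change was 0.34 ± 0.17 (limma, adjusted p = 0.224; with the mouse as a block, 0.0413; with the block and without mouse 2, 0.0900). A processed pseudogene, *Txn-ps1*, could share reads with it, so its level is uncertain to that extent.

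*Txnrd1* (ENSMUSG00000020250, chr10:82833951-82897712, plus strand) encodes the thioredoxin reductase that regenerates thioredoxin with NADPH. It was 95.4, 88.7 and 123 TPM in *D/F* DMSO and 136, 180 and 198 TPM in *D/F* CCS1477. In *T/F* it was 112, 118 and 128 TPM with DMSO and 131, 135 and 145 TPM with CCS1477. No treated library fell within the untreated range of its genotype, and mouse 2 moved from the lowest *D/F* value to a level near the highest. Neither genotype passed on its own (limma, *D/F* 0.73 ± 0.21, adjusted p = 0.0739; *T/F* 0.20 ± 0.08, adjusted p = 0.0873), and both passed with the mouse as a block (limma, adjusted p = 0.0195 and 0.0307; in *D/F* without mouse 2, 0.0355). Over both genotypes *Txnrd1* rose by 0.47 ± 0.13 (limma, adjusted p = 0.0148). The gene overlaps *Eid3* on the same strand and *Gm38560* and *Gm47073* on the other, none of them in the table.

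*Srxn1* (ENSMUSG00000032802, chr2:152105516-152111376, plus strand) encodes sulfiredoxin, which restores over-oxidized peroxiredoxins. It was 17.3, 22.5 and 18.1 TPM in *D/F* DMSO and 28.5, 79.4 and 47.2 TPM in *D/F* CCS1477. *T/F* cells gave 15.8, 22.1 and 19.8 TPM with DMSO and 26.1, 28.5 and 30.8 TPM with CCS1477. All treated libraries were above all untreated ones. The *D/F* mice differed widely in the size of the change, from 1.65-fold in mouse 1 to 3.53-fold in mouse 2. *Srxn1* rose 1.47-fold in *T/F* (log2 0.55 ± 0.14; limma, adjusted p = 0.0205), a call lost without mouse 2 (limma, adjusted p = 0.0690) or mouse 3 (limma, adjusted p = 0.105). In *D/F* it was 2.40-fold higher (1.27 ± 0.36; limma, adjusted p = 0.0719), which passed with the mouse as a block (limma, adjusted p = 0.0203) and also when mouse 2 was left out of that fit (limma, adjusted p = 0.0419).

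*Prdx1* (ENSMUSG00000028691, chr4:116685544-116700822, plus strand), the abundant peroxiredoxin that reduces hydrogen peroxide, was the only member called in both genotypes without the mouse in the model. It was 324, 308 and 357 TPM in *D/F* DMSO and 582, 656 and 670 TPM in *D/F* CCS1477. In *T/F* it was 398, 432 and 430 TPM with DMSO and 619, 626 and 677 TPM with CCS1477. The treated levels of the genotypes lay within 1 SD of each other, at 636 ± 47.2 and 641 ± 31.6 TPM (SD, n = 3), while the untreated levels were 330 ± 25.1 (*D/F*) and 420 ± 19.0 (*T/F*). The rise was 1.92-fold in *D/F* (log2 0.94 ± 0.15; limma, adjusted p = 0.0158) and 1.52-fold in *T/F* (0.61 ± 0.07; limma, adjusted p = 0.00170). The *D/F* call was lost without mouse 1 (limma, adjusted p = 0.193) or mouse 3 (limma, adjusted p = 0.234), and held without mouse 2, also with the mouse as a block (limma, adjusted p = 0.0196). In the fits without mouse 1 or mouse 3, 0 of all genes tested passed an adjusted p of 0.05 in limma, while 2494 and 2330 had an unadjusted p under 0.05.

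*Hmox1* and *Nqo1*, the genes most often used as readouts of NRF2, did not pass the test in either genotype. *Hmox1* (ENSMUSG00000005413, chr8:75093621-75100589, plus strand), the inducible heme oxygenase that degrades heme, was 37.5, 15.6 and 24.2 TPM in *D/F* DMSO and 50.1, 83.8 and 36.5 TPM in *D/F* CCS1477. *T/F* cells gave 31.0, 53.1 and 28.5 TPM with DMSO and 28.5, 57.1 and 42.2 TPM with CCS1477. The groups overlapped in both genotypes, and *D/F* mouse 2 had both the lowest and the highest level of the 12 libraries. In that mouse *Hmox1* was 5.38-fold higher with CCS1477, against 1.34- and 1.51-fold in the other *D/F* mice and 0.919- to 1.48-fold in *T/F*. In *D/F* this came to a log2 change of 1.11 ± 0.41 (limma, adjusted p = 0.125), and for *T/F* to 0.18 ± 0.33 (limma, adjusted p = 0.692). Without mouse 2 the *D/F* change was 0.49, which passed only with the mouse as a block (limma, adjusted p = 0.0464). Macrophages of the spleen are rich in *Hmox1*, and the summed macrophage markers given above were reduced on treatment with CCS1477 in each of the 6 mice. Their part in the *Hmox1* levels was not tested.

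*Nqo1* (ENSMUSG00000003849, chr8:107388225-107403206, minus strand), the quinone reductase, was 4.45, 34.0 and 4.23 TPM in *D/F* DMSO and 4.70, 29.2 and 5.69 TPM in *D/F* CCS1477. In *T/F* it was 6.63, 5.19 and 5.68 TPM with DMSO and 6.47, 6.97 and 8.27 TPM with CCS1477. Both libraries of *D/F* mouse 2 stood at least 20 TPM above the other 10, and this mouse had slightly less with CCS1477. The change was 0.07 ± 0.94 in *D/F* (limma, adjusted p = 0.971), with a 95% confidence interval of −2.20 to 2.33. With the mouse as a block, the interval was −0.31 to 0.45 (limma, adjusted p = 0.719). In *T/F* it was 0.27 ± 0.12 (limma, adjusted p = 0.117).

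Within *D/F*, 1 of the 10 members was called higher and 0 lower, against 5.14% and 6.51% of the 15501 genes tested (limma, adjusted p under 0.05). At an unadjusted p under 0.05 the numbers were 5 and 0, beside 16.1% and 14.3% of all genes. Within *T/F*, 6 members were called higher and 1 lower, against 25.8% and 17.6% of 15256 genes. In a fit of all 4 groups with 1 shared spread, only *Prdx1* kept its *T/F* call (limma, adjusted p = 0.00215), and *Nfe2l2*, *Keap1*, *Gclc*, *Gclm*, *Srxn1* and *Txn1* lost theirs (limma, adjusted p = 0.123 to 0.206). Of all genes, 13.8% were called higher and 10.5% lower in *T/F* in that fit. After rescaling to the median gene, *Nfe2l2*, *Keap1* and *Txn1* lost their *T/F* calls, and 20.5% of all genes were called higher and 20.7% lower. No member passed 2-fold in either genotype, where 7.28% and 7.33% of all genes did. At an unadjusted p under 0.05 in limma, 2 members (*Hmox1* and *Srxn1*) in *D/F* and 0 in *T/F* passed 2-fold, as 10.8% and 7.73% of all genes did. With the mouse as a block, *D/F* had 6 members higher, 1 of them (*Srxn1*) above 2-fold, while 21.4% of all genes were then called higher, 18% lower and 11.2% above 2-fold. Without mouse 2 that fit had 5 members higher, with *Nfe2l2* and *Txn1* lost and *Hmox1* gained, and 1 lower (*Gclm*). Of the 15191 genes tested without mouse 2, 17.8% were called higher and 15.2% lower. In *T/F* the fit with the mouse as a block gave 7 members higher and 1 lower, with 31.2% of all genes higher and 22.9% lower. Treated and untreated libraries did not overlap for 6 members in *D/F* and 8 in *T/F*, compared with 36.6% and 56.1% of all genes. The members' median log2 change was 0.61 for *D/F* and 0.26 for *T/F*, beside 0.06 and 0.07 for all genes. Without *D/F* mouse 2 the members' median in *D/F* was 0.43. The exact permutation test of 3 against 3 libraries cannot give a p below 0.1, which it gave for each non-overlapping member.

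**Figure D3:**
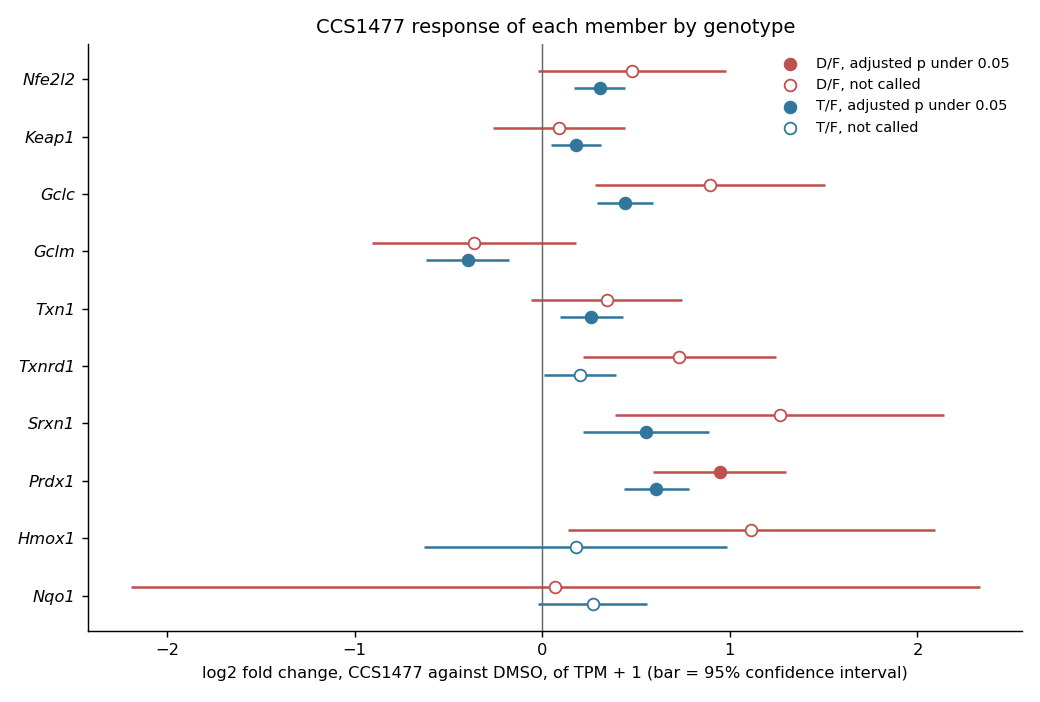
Log2 fold change of TPM + 1, CCS1477 against DMSO (horizontal axis), for each member in *D/F* (red) and *T/F* (blue), with 95% confidence intervals from limma (n = 3 mice per group). Filled points have an adjusted p under 0.05 without the mouse in the model, which holds for *Prdx1* in *D/F* and for 7 members in *T/F*, and the *D/F* intervals are the wider for every member.

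The question whether the response differed by genotype was put to the difference between the changes, *T/F* minus *D/F*. No member passed, nor did any of the 15583 genes tested (limma, adjusted p under 0.05; 0.0%), although 2 members and 659 genes had an unadjusted p under 0.05. These members were *Prdx1*, with a difference of −0.34 (95% confidence interval −0.65 to −0.02; limma, adjusted p = 1.00), and *Txnrd1*, with −0.53 (−1.04 to −0.03; limma, adjusted p = 1.00). For *Nfe2l2* the difference was −0.17 (−0.65 to 0.30), for *Gclc* −0.45 (−1.05 to 0.15) and for *Srxn1* −0.71 (−1.64 to 0.22). For *Gclm* it was −0.03 (−0.58 to 0.52). All of these bounds come from the fit without the mouse. With the mouse as a block no gene passed either, while 2293 of the 15583 had an unadjusted p under 0.05 in limma. The adjusted p was then 0.209 for *Gclc*, 0.231 for *Txnrd1* and 0.250 for *Prdx1* (limma). Equal responses were therefore not shown. In the fit without the mouse, differences as large as its bounds remained possible at unequal doses, and bounds with the block are not given. For 8 of the 10 members the difference was below 0, and the exceptions were *Keap1* and *Nqo1*. The members' median difference was −0.256, and that of all genes tested was 0.018. Without *D/F* mouse 2 the members' median was −0.163, with 3 members above 0. Nothing is read from this count.

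**Figure D4:**
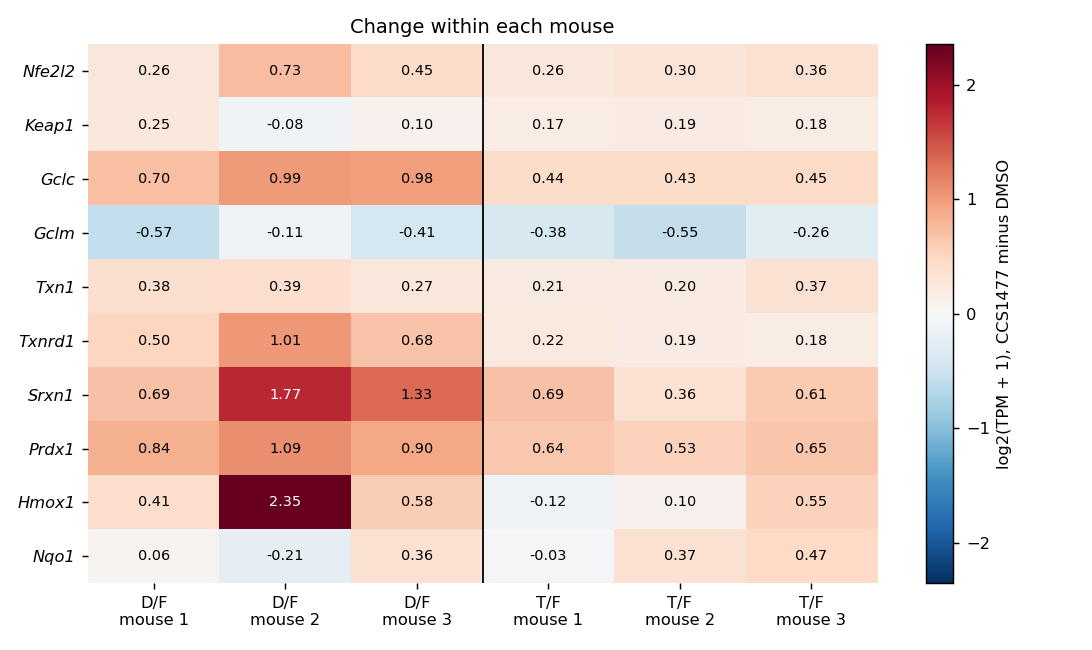
Change in log2(TPM + 1), CCS1477 minus DMSO, of each member (rows) in the cells of each of the 6 mice (columns), with red for higher and blue for lower and the value printed in each cell. *D/F* mouse 2 holds the largest rises of *Hmox1* (2.35) and *Srxn1* (1.77), and *Gclm* is negative in every column.

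The genotypes were then compared under each treatment. With DMSO no member differed between *T/F* and *D/F*, and 0.0328% of the 15265 genes tested did (limma, adjusted p under 0.05). One member, *Prdx1*, had an unadjusted p under 0.05 in limma, as did 939 of the 15265 genes tested. It was 1.27-fold higher in *T/F* (log2 0.35 ± 0.12; limma, adjusted p = 0.691). With CCS1477, at unequal doses, no member passed either, beside 0.0329% of 15199 genes. Here 1 member, *Gclc*, had an unadjusted p under 0.05 (log2 −0.66 ± 0.21 in *T/F* against *D/F*; limma, adjusted p = 0.355), as did 1643 of the 15199 genes. Nothing is read from either count. With DMSO, *Nfe2l2* averaged 79.5 ± 6.41 TPM (SD, n = 3) for *D/F* and 83.2 ± 1.85 for *T/F*, a log2 difference of 0.07 with a 95% confidence interval of −0.21 to 0.34. The 95% confidence interval for *Nqo1* in DMSO ran from −2.34 to 1.23, the widest of the members.

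TPM allows levels of different genes to be ranked, since it is scaled to length. In all 4 groups *Prdx1* was highest, followed by *Txn1*, *Txnrd1* and *Nfe2l2*, and *Nqo1* was lowest. In DMSO the first 4 did not overlap with their neighbours in either genotype. With CCS1477 in *D/F*, *Txnrd1* (171 ± 31.9 TPM) and *Nfe2l2* (113 ± 28.0 TPM) overlapped, as did every later pair of neighbours. *Gclc* and *Gclm* were adjacent and overlapping in DMSO in both genotypes (41.9 ± 8.09 and 41.0 ± 4.57 TPM in *D/F*). Under CCS1477 *Gclc* took the fifth place in both genotypes and *Gclm* the ninth. *Srxn1* lay below *Keap1* in both untreated groups, and in treated *D/F* it ranked above it, at 51.7 ± 25.8 against 32.6 ± 3.39 TPM, with overlapping libraries.

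The members varied together in part. Over the 12 libraries, which share 4 group means and 6 mice, the log2(TPM + 1) of *Srxn1* had the highest correlation with *Nfe2l2* among the members (r = 0.931, place 100 among the 11603 genes that averaged 5 TPM or more). It was followed by *Gclc* (0.866), *Prdx1* (0.789) and *Txnrd1* (0.738). *Hmox1* (0.608), *Nqo1* (0.547), *Txn1* (0.413) and *Keap1* (0.202) followed, and *Gclm* was at −0.174. The 5 genes most like *Nfe2l2* were *Ftl1*, the ferritin light chain (0.976), *Icosl* (0.970), *Stx6* (0.969), *Zfp935* (0.968) and *Relch* (0.967). Once the group means were removed, *Nfe2l2* still correlated with *Gclc* (0.920), *Srxn1* (0.918), *Gclm* (0.876) and *Nqo1* (0.831), and with opposite sign with *Keap1* (−0.778) and *Txn1* (−0.704). *Txnrd1* and *Prdx1* formed the closest pair (0.938). Several of these values depended on *D/F* mouse 2. Over the 10 libraries without it, the correlation of levels with *Nfe2l2* was 0.968 for *Prdx1*, 0.872 for *Txn1*, 0.838 for *Srxn1*, 0.750 for *Keap1*, 0.748 for *Gclc* and −0.716 for *Gclm*. With the group means removed it was then 0.864 for *Gclc*, 0.824 for *Gclm*, 0.747 for *Srxn1*, 0.570 for *Nqo1*, −0.924 for *Keap1* and 0.146 for *Txn1*, whose sign had turned. All of these are descriptions over 12 or 10 libraries.

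Calls in the wider antioxidant lists are given beside the shares of all genes called, which in *D/F* were 5.14% higher and 6.51% lower, and for *T/F* 25.8% and 17.6%, and nothing is read from counts near these shares. Of 13 regulators and partners of NRF2, 1 was called higher and 1 lower in *D/F*, whereas *T/F* had 4 and 1 (limma, adjusted p under 0.05). *Gsk3b*, a kinase that marks NRF2 for degradation independently of KEAP1, rose from 64.8 ± 4.69 to 108 ± 0.941 TPM in *D/F* (log2 0.73; limma, adjusted p = 0.0256) and by 0.71 in *T/F* (limma, adjusted p = 0.00109). *Mafg*, a small MAF partner of NRF2, fell from 45.8 ± 4.02 to 29.5 ± 0.360 TPM in *D/F* (log2 −0.62; limma, adjusted p = 0.0410) and by 0.51 in *T/F* (limma, adjusted p = 0.00703). Without *T/F* mouse 1 or 2 the *T/F* call of *Mafg* was lost (limma, adjusted p = 0.0659 and 0.0547). The list's median was 0.33 for *D/F* and 0.15 for *T/F*.

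Of the genes of glutathione synthesis, transport and use, 0 of 34 in *D/F* were called higher and 3 lower (at an unadjusted p under 0.05 in limma, 4 and 7). In *T/F* 9 of 33 were higher and 11 lower. Both that were called in both genotypes fell. *Mgst2*, a microsomal glutathione transferase, fell from 244 ± 85.7 to 80.1 ± 27.8 TPM in *D/F* (log2 −1.58; limma, adjusted p = 0.0397) and from 148 ± 15.2 to 77.9 ± 6.07 TPM in *T/F* (−0.92; limma, adjusted p = 0.00164). *Abcc4*, an efflux transporter, fell by 1.12 in *D/F* (limma, adjusted p = 0.00873) and 1.06 in *T/F* (limma, adjusted p = 0.00368). The median of the list was −0.13 and −0.21, on the other side of 0 from the median of all genes.

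Among 18 other thioredoxin, peroxiredoxin, superoxide dismutase and catalase genes, 2 were higher and 2 lower in *D/F*, whereas *T/F* had 5 and 4. *Prdx4*, the peroxiredoxin of the endoplasmic reticulum, rose from 11.9 ± 3.33 to 26.6 ± 2.32 TPM in *D/F* (log2 1.12; limma, adjusted p = 0.0259) and by 0.93 in *T/F* (limma, adjusted p = 0.00272). *Sod1*, the cytosolic superoxide dismutase, rose by 0.72 (limma, adjusted p = 0.0287) and 0.54 (limma, adjusted p = 0.00230). *Prdx6*, a peroxiredoxin that uses glutathione, went the other way from *Prdx1*, falling from 272 ± 22.5 to 151 ± 9.38 TPM in *D/F* (log2 −0.84; limma, adjusted p = 0.0206) and from 239 ± 13.6 to 129 ± 4.37 TPM in *T/F* (−0.89; limma, adjusted p = 0.000628). *Msra*, a methionine sulfoxide reductase, fell by 0.60 in *D/F* (limma, adjusted p = 0.0359) and 0.50 in *T/F* (limma, adjusted p = 0.00427; without *T/F* mouse 2, 0.0595). The medians were −0.11 and −0.09.

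Of 12 heme and iron genes, 2 were higher and 1 lower in *D/F*, whereas *T/F* had 4 and 3, with medians of 0.34 and 0.19. *Ftl1* rose from 2582 ± 625 to 9048 ± 5265 TPM in *D/F* (log2 1.69; limma, adjusted p = 0.0461) and from 3017 ± 352 to 5821 ± 618 TPM in *T/F* (0.95; limma, adjusted p = 0.00219). *Fech*, the last enzyme of heme synthesis, rose by 0.87 (limma, adjusted p = 0.0189) and 0.82 (limma, adjusted p = 0.00116). *Alas1*, its first and rate-limiting enzyme, fell from 541 ± 348 to 91.8 ± 32.3 TPM in *D/F* (log2 −2.38; limma, adjusted p = 0.0375) and from 446 ± 55.3 to 107 ± 3.55 TPM in *T/F* (−2.05; limma, adjusted p = 0.000333). The list thus held changes of opposite sign at the ends of one pathway.

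None of the 6 genes of NADPH supply passed in *D/F* (limma; 0 at an unadjusted p under 0.05), and 1 was higher in *T/F*, with medians of −0.06 and −0.13. Of 13 detoxification genes 2 were higher and 0 lower in *D/F* (at an unadjusted p under 0.05 in limma, 5 and 0), and 6 and 0 in *T/F* (7 and 2), with medians of 0.26 and 0.37. *Cbr1*, a carbonyl reductase, rose from 17.1 ± 4.23 to 36.1 ± 4.11 TPM in *D/F* (log2 1.05; limma, adjusted p = 0.0308) and from 11.2 ± 1.17 to 27.0 ± 1.72 TPM in *T/F* (1.20; limma, adjusted p = 0.000626). Of the 12 genes named from these lists, 0 kept their *D/F* call without mouse 1 or mouse 3, where limma called no gene at all, and 11 kept it without mouse 2, the exception being *Mgst2*. In *T/F* the calls other than those of *Mafg* and *Msra* held without any 1 mouse.

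**Figure D5:**
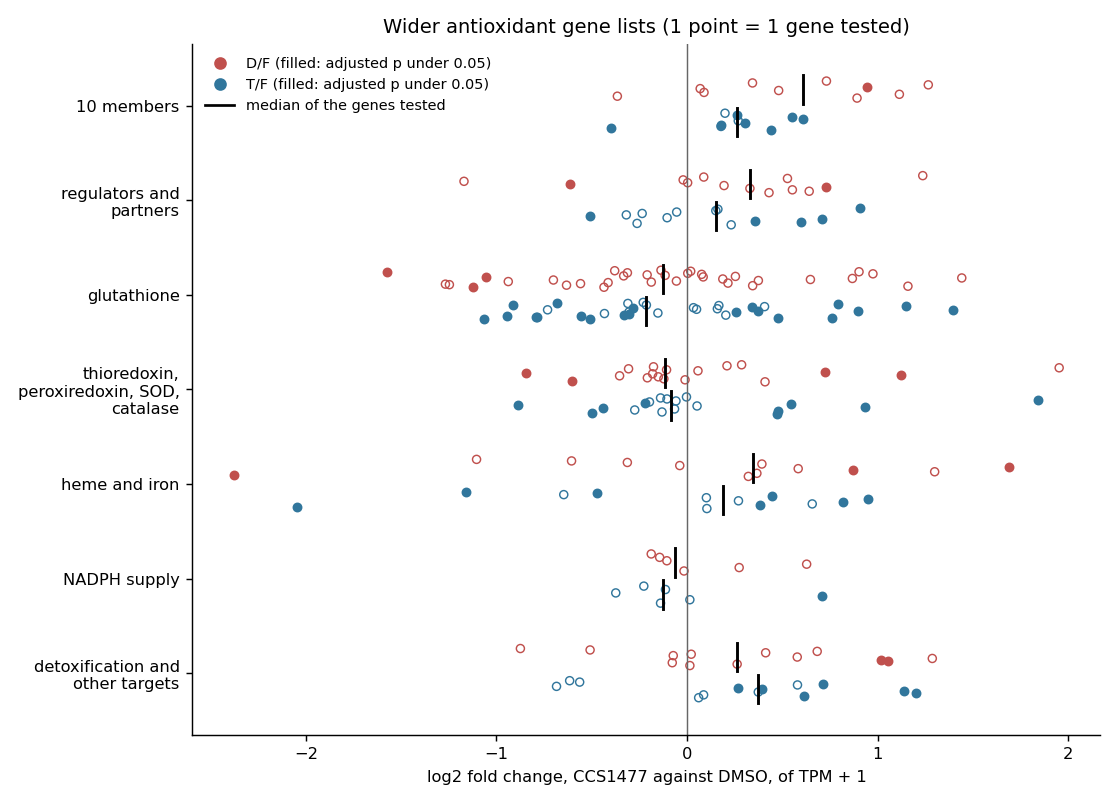
Log2 fold change of TPM + 1, CCS1477 against DMSO (horizontal axis), of each gene tested in the members and in 6 wider lists (rows), in *D/F* (red) and *T/F* (blue). Filled points have an adjusted p under 0.05 (limma) and black ticks mark medians, which lie at 0.61 and 0.26 for the members and at −0.13 and −0.21 for the glutathione list.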

How the data were processed

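RNA of c-Kit enriched leukemic splenocytes was sequenced in 12 libraries. The labels name both ribosome depletion and a stranded mRNA kit. The authors deposited gene-level TPM, made with kallisto on mm10 per the submitters' processing notes. The annotation, version and strand setting are not given in the sources used here. The table holds no gene whose highest value is under 2.00 TPM, and its libraries sum to 914204 to 931697 TPM. Of its 15651 genes, 399 had no symbol in GENCODE vM21, and all 10 members were matched. The depth is unknown, so no interval for counting error is given.

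Differences were tested with limma 3.58.1 (R 4.3.3), fitted without a trend to log2(TPM + 1), two-sided. Every gene that averaged 1 TPM or more in a group compared was tested, with Benjamini-Hochberg adjustment over all of them. Fold changes on this scale understate those of low genes. limma took the place of the authors' AltAnalyze, which was not run here, and a simulated table with known changes was used to test the code. The exact permutation and sign-flip tests were two-sided. Libraries from the same mouse, as the sample descriptions name it, were paired: deviations from the group means correlated at r = 0.539 to 0.669 in *D/F* and 0.354 to 0.496 in *T/F* across genes, and at 0.141 at most between different mice. The mouse was entered as a block in an alternative fit only, since the study's methods name no pairing for the RNA-seq. The standard errors and intervals of the main fit therefore include differences in level between mice, and not only the spread of the response. For *Nqo1* in *D/F* the standard error was 0.94 in the main fit and 0.14 with the block. Other alternatives were a pseudocount of 0.1, filters at 5 TPM and none, rescaling to the median gene, quantile normalization, a shared fit of 4 groups and leaving out each mouse. The fits with the block and without *D/F* mouse 2, and the correlations without that mouse, were added after seeing the data. The members and lists were chosen with earlier results of these data known. All 10 members are named. Of the wider lists, genes are named that were called in the same direction in both genotypes, at most 4 rises and 4 falls per list, with the 5 genes most correlated with *Nfe2l2*, *Dnmt3a* and *Tet2*. Promoter windows come from RefSeq (GRCm38.p6). One erythroid marker is not reported here and was left out of the marker sums.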

Additional observations from a re-analysis of the deposited data

How the results depend on the processing

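In *D/F*, the number of members called higher (1) was 3 after rescaling to the median gene, 4 after quantile normalization, 6 in the shared fit of 4 groups, 6 with the replicate block that paired the libraries of each mouse, 5 with the replicate block and no mouse 2, and 0 to 2 when 1 mouse was left out (0 without mouse 1 or 3, 2 without mouse 2). Members called above 2-fold (0) numbered 1 under each of those scalings and fits with all 3 mice and also with the replicate block and no mouse 2, where 1 member, *Gclm*, was called lower. All genes called numbered 796 higher and 1009 lower, and 1552 and 1294 after quantile normalization. Of all genes tested, 5.14% were called higher, against 6.9% after rescaling, 10% after quantile normalization and 17.5% in the shared fit. That share was 21.4% with the replicate block, 17.8% with the block and no mouse 2, 13.8% without mouse 2 and 0% without mouse 1 or 3. With the block and no mouse 2, 15.2% were called lower. In *T/F*, members called higher (6) numbered 3 after rescaling, 1 in the shared fit and 2 to 3 without 1 mouse, and members called lower (1) numbered 0 in the shared fit and 0 to 1 without 1 mouse. Of all genes tested in *T/F*, 25.8% were called higher, against 20.5% after rescaling, 13.8% in the shared fit and 11.5% to 19.2% without 1 mouse. The share called lower was 17.6%, against 10.5% in the shared fit and 9.47% to 14.5% without 1 mouse. Over both genotypes, members called higher (6) numbered 6 to 8 without 1 mouse (8 without *D/F* mouse 2, with *Keap1* and *Nqo1* gained). Of all genes tested, 20.4% to 32.6% were called higher and 15.9% to 22.8% lower without 1 mouse. Members called lower (1) numbered 0 to 1 without 1 mouse (0 without *D/F* mouse 3 or *T/F* mouse 1 or 2), and those above 2-fold (0) numbered 0 to 1 (1, *Srxn1*, without *T/F* mouse 2). The replicate block changed no other member's call than those given beside the results. The cause of these shifts was not tested.

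Directions turned for members that had not passed a test. Without 1 mouse the change of *Nqo1* in *D/F* ranged from −0.075 to 0.21 and that of *Hmox1* in *T/F* from −0.0079 to 0.33, and the genotype difference of the *Gclm* response ranged from −0.14 to 0.093. For *T/F* against *D/F* in DMSO the ranges were −0.011 to 0.029 for *Keap1*, −1.02 to 0.35 for *Nqo1* and −0.11 to 0.12 for *Srxn1*, which was also 0.035 after rescaling and 0.032 after quantile normalization. With CCS1477 they were −0.25 to 0.081 for *Nfe2l2*, −0.79 to 0.41 for *Nqo1*, −0.050 to 0.051 for *Prdx1* and −0.038 to 0.084 for *Txn1*, and quantile normalization gave −0.011 for *Prdx1* and −0.042 for *Txn1*. With 3 mice per group and no read counts, the directions of these differences could not be resolved.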
